A study of Mus musculus with 12 samples.

Results

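The nuclear and mitochondrially encoded subunits of respiratory chain complexes I, III and IV were followed in bone marrow monocytes of mice. Members were the genes whose symbols start with Ndufa, Ndufb, Ndufc, Ndufs or Ndufv and a digit, with Uqcr, or with Cox4 to Cox8, together with the mt-Nd genes, mt-Cytb and mt-Co1 to mt-Co3. Symbols of annotated pseudogene copies ending in -ps were left out, which removed 3 rows. The rule found 78 members among 54532 genes, 67 encoded in the nucleus and 11 in mitochondrial DNA. Of the nuclear members, 40 belong to complex I by symbol, 8 to complex III and 19 to complex IV, and of the mitochondrial members 7, 1 and 3. Of the 78 members, 69 passed the filter on low counts, 58 nuclear and all 11 mitochondrial.

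The study sorted CD11b+Ly6Chi monocytes, the classical inflammatory monocytes, from the marrow of mice given 300 mM succinate for 7 days or none, and cultured them with LPS, the bacterial lipopolysaccharide sensed by TLR4, for 4 h or without it. There were 4 groups of 3 libraries: control mice without LPS, succinate mice without LPS, control mice with LPS and succinate mice with LPS. The sources used here name neither strain, genotype, sex and age nor LPS dose, nor do they say whether each library came from a separate mouse. The p-values therefore measure only the spread between these libraries, which may be technical.

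The respiratory chain passes electrons from NADH and succinate to oxygen. Complex I takes them from NADH to ubiquinone, complex III from ubiquinone to cytochrome c and complex IV from cytochrome c to oxygen, and all of them pump protons, while complex II, which oxidises succinate, does not. The catalytic centres of complexes III and IV and the proton-pumping core of complex I are encoded partly in mitochondrial DNA, so building each complex needs transcripts of both genomes. In macrophages given LPS, oxidation of succinate and reverse electron flow through complex I are known sources of mitochondrial reactive oxygen.

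Total counts were 15975882 to 18306747 a library, and the members took between 0.916% and 1.363% of them. Levels below are CPM, counts scaled to the size of the library after adjustment by trimmed means of M values (TMM). The sorted cells held transcripts of the gated proteins, with Itgam at 176 CPM and Ly6c2 at 593 CPM in control mice without LPS. Marker lists of other marrow cells also moved between groups. The 9 neutrophil markers summed to 6510 to 10400 CPM in control and 5780 to 7900 CPM in succinate mice without LPS, and to 10600 to 14300 and 11600 to 13000 CPM with LPS, and with LPS 4 of the 9 were called higher and 2 lower in control mice, and 3 higher and 2 lower in succinate mice. The 6 progenitor markers summed to 1850 to 2570, 1740 to 2970, 1580 to 3480 and 2700 to 3430 CPM in the same order of groups, with 2 and 4 of the 6 called higher with LPS. The 9 monocyte markers summed to 10200 to 10600, 6930 to 9930, 8410 to 9320 and 5940 to 8300 CPM, and with LPS 2 of them were called higher and 5 lower in both kinds of mice. The 5 proliferation genes summed to 1740 to 1900, 1670 to 1920, 1650 to 2060 and 2030 to 2140 CPM. Lists for lymphocytes (B, T and NK), red cells, dendritic cells, the granulocytes other than neutrophils with mast cells, and platelets each summed to at most 228 CPM in any library. Of the defining markers Ncr1 was at 0 in both groups without LPS, and Cd3e reached at most 0.187 CPM in any library. In bulk libraries fewer cells of a type and less RNA per cell cannot be told apart, and the part of these cell types in the results below was not tested.

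The libraries also fell into a pair of classes by 5 genes (S100a4, Rpl24, Rpl10-ps3, Gm14303 and Rpl35a-ps2) that an earlier pass over these data had singled out. Averaged over them, log2 CPM lay between 3.19 and 4.03 in 5 libraries (without LPS replicates 2 and 3 of control and of succinate mice, with LPS replicate 3 of control mice). It lay between 0.82 and 1.46 in the other 7, which include each library of succinate mice with LPS. Beside the main counts below stands the same count with this class as a covariate in the fit.

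On the TMM scale the summed nuclear members overlapped between groups in every comparison, whereas the summed mitochondrial members were higher with LPS in every library of the same mice. Nuclear members summed to 2722, 2257 and 2567 CPM in control mice without LPS, 2654, 1804 and 2433 CPM in succinate mice without LPS, 2733, 2672 and 2545 CPM in control mice with LPS, and 2565, 2612 and 2945 CPM in succinate mice with LPS. Mitochondrial members summed to 8387, 7695 and 7740 CPM, 7527, 7068 and 7806 CPM, 9126, 9154 and 8487 CPM, and 9278, 9163 and 10490 CPM in the same order. Every library with LPS was thus above every library without it on the mitochondrial sum of the same mice, and all 3 of succinate mice with LPS were above all 3 of control mice with LPS, with 9163 against 9154 CPM in the closest pair. Without mt-Co1 the libraries with LPS stayed above those without, but succinate and control mice with LPS overlapped. Those sums were 4527, 4626 and 5477 CPM in succinate and 4594, 4691 and 4372 CPM in control mice with LPS.

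The group means of the mitochondrial sum were 7941 ± 387 CPM in control mice and 7467 ± 373 CPM in succinate mice without LPS, and 8922 ± 377 and 9642 ± 732 CPM with LPS (SD, n = 3 each). The ratio of means with LPS to without was 1.12 in control mice and 1.29 in succinate mice. The nuclear means were 2515 ± 237, 2297 ± 441, 2650 ± 95.7 and 2707 ± 207 CPM (SD, n = 3 each), with ratios of 1.05 and 1.18. As a share of all counts, without TMM, the mitochondrial sum of control mice overlapped between libraries with LPS, 0.7943% to 0.8825%, and without, 0.7683% to 0.8448%. In succinate mice it did not, with 0.9296% to 1.064% against 0.7297% to 0.8052%. The nuclear share of succinate mice with LPS, 0.2649% to 0.2989%, lay above that of control mice with LPS, 0.2382% to 0.2576%, without overlap.

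**Figure D1:**
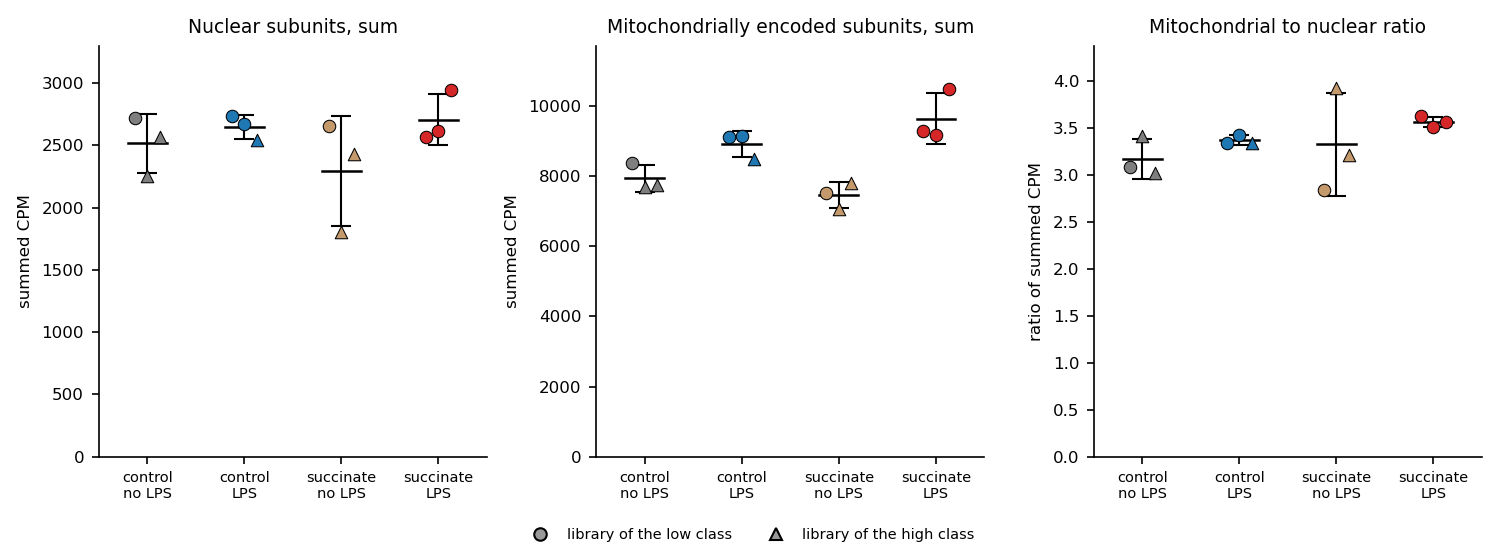
Summed CPM of the nuclear members (left), summed CPM of the mitochondrial members (middle) and their ratio (right) by group, with 1 point a library and bars for the mean ± SD of 3 libraries. Circles and triangles are the libraries low and high for the 5 class genes. The mitochondrial sums with LPS sit above those without LPS in both kinds of mice, while the nuclear sums in CPM overlap in every comparison.

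The ratio of mitochondrial to nuclear counts, taken within a library and therefore free of the scaling, was 3.081, 3.409 and 3.015 in control mice without LPS and 2.836, 3.918 and 3.208 in succinate mice without LPS. With LPS it was 3.34, 3.426 and 3.335 in control mice and 3.618, 3.509 and 3.561 in succinate mice. The libraries without LPS spread widely, led by replicate 2 of the succinate mice, which had the lowest nuclear sum of all 12. The ratios of the 6 libraries with LPS lay close together, at 3.367 ± 0.0513 and 3.562 ± 0.0544 (SD, n = 3 each), with succinate mice above control mice without overlap. No test was made on these sums, since the members were chosen with results known.

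By complex, the sum of the 8 nuclear subunits of complex III was the one nuclear sum that was higher with LPS without overlap in both kinds of mice. It was 547 ± 38.6 CPM without and 635 ± 19.3 CPM with LPS in control mice, and 495.7 ± 77.3 and 612.8 ± 51.4 CPM in succinate mice (SD, n = 3 each). Nuclear complex I summed to 1074 ± 90 and 1062 ± 35.6 CPM in control mice and to 965.2 ± 190 and 1112 ± 96.8 CPM in succinate mice. Nuclear complex IV summed to 894.4 ± 109 and 952.5 ± 46.7 CPM, and to 836.2 ± 182 and 982.1 ± 59.8 CPM. For both, the libraries with and without LPS overlapped. The sum of the mitochondrial complex I members overlapped in control mice, at 3162, 2949 and 3019 CPM without and 3332, 3370 and 3131 CPM with LPS. In succinate mice it did not, with 2570, 2866 and 3131 CPM against 3183, 3328 and 3946 CPM. The mitochondrial sums of complexes III and IV were higher with LPS without overlap in both kinds of mice.

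Gene by gene, LPS was tested with edgeR's quasi-likelihood test over 14324 genes, and a member counts as called where the p adjusted over all of them (Benjamini-Hochberg) was below 0.05. In control mice 1 of 58 nuclear members was called higher and 1 lower, and 1 of 11 mitochondrial members was called higher and 0 lower, where 15.3% of all tested genes were called higher and 14.8% lower. In succinate mice 12 nuclear members were called higher and 1 lower, and 5 mitochondrial members higher and 0 lower, where 14.1% of all tested genes were called higher and 16.2% lower. The nuclear share called higher in succinate mice, 20.7%, was near that background, and the share called lower, 1.72% in each kind of mice, was below it. The nuclear share called higher in control mice, also 1.72%, was below the 15.3% there. The mitochondrial share called higher was 9.09% in control and 45.5% in succinate mice, out of 11 genes. With the library class as a covariate, the nuclear counts were 2 in control mice and 6 in succinate mice, and the mitochondrial counts 1 and 2. With the replicate number as a block, 21 nuclear and 5 mitochondrial members were called in succinate mice. Deviations from the group means correlated at 0.114 to 0.615 between same-numbered libraries there, against -0.547 to 0.486 for other numbers.

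Single libraries moved these counts. In succinate mice 5 nuclear members were called without replicate 2 of the libraries without LPS or without replicate 3 of those with LPS, and 27 without replicate 1 of those without LPS. Without replicate 2 of succinate mice without LPS or replicate 3 with LPS, 3 mitochondrial members were called there. The nuclear count of control mice was 5 without replicate 2 of succinate mice without LPS, and 4 without replicate 3 of succinate mice without or with LPS. The mitochondrial count of control mice was 2 without replicate 1 of those without LPS.

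Median log2 fold changes with LPS were 0.07 for the tested nuclear and 0.17 for the mitochondrial members in control mice, and 0.34 and 0.40 in succinate mice, beside -0.004 and -0.017 over all tested genes. The nuclear median of succinate mice was 0.18 without replicate 2 and 0.47 without replicate 1 of the libraries without LPS, and that of control mice ran from 0.02 without replicate 1 with LPS to 0.19 without replicate 1 without LPS. In control mice 35 of 58 nuclear fold changes were above 0 and in succinate mice 48 of 58. Of all tested genes 49.7% and 48.4% were above 0. The mitochondrial fold changes were above 0 for 10 of 11 genes in control and 11 of 11 in succinate mice, but with trends in GC content and length removed from the counts their medians became -0.18 in control and 0.02 in succinate mice, with 0 called in either. The nuclear and mitochondrial medians were not tested against each other.

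**Figure D2:**
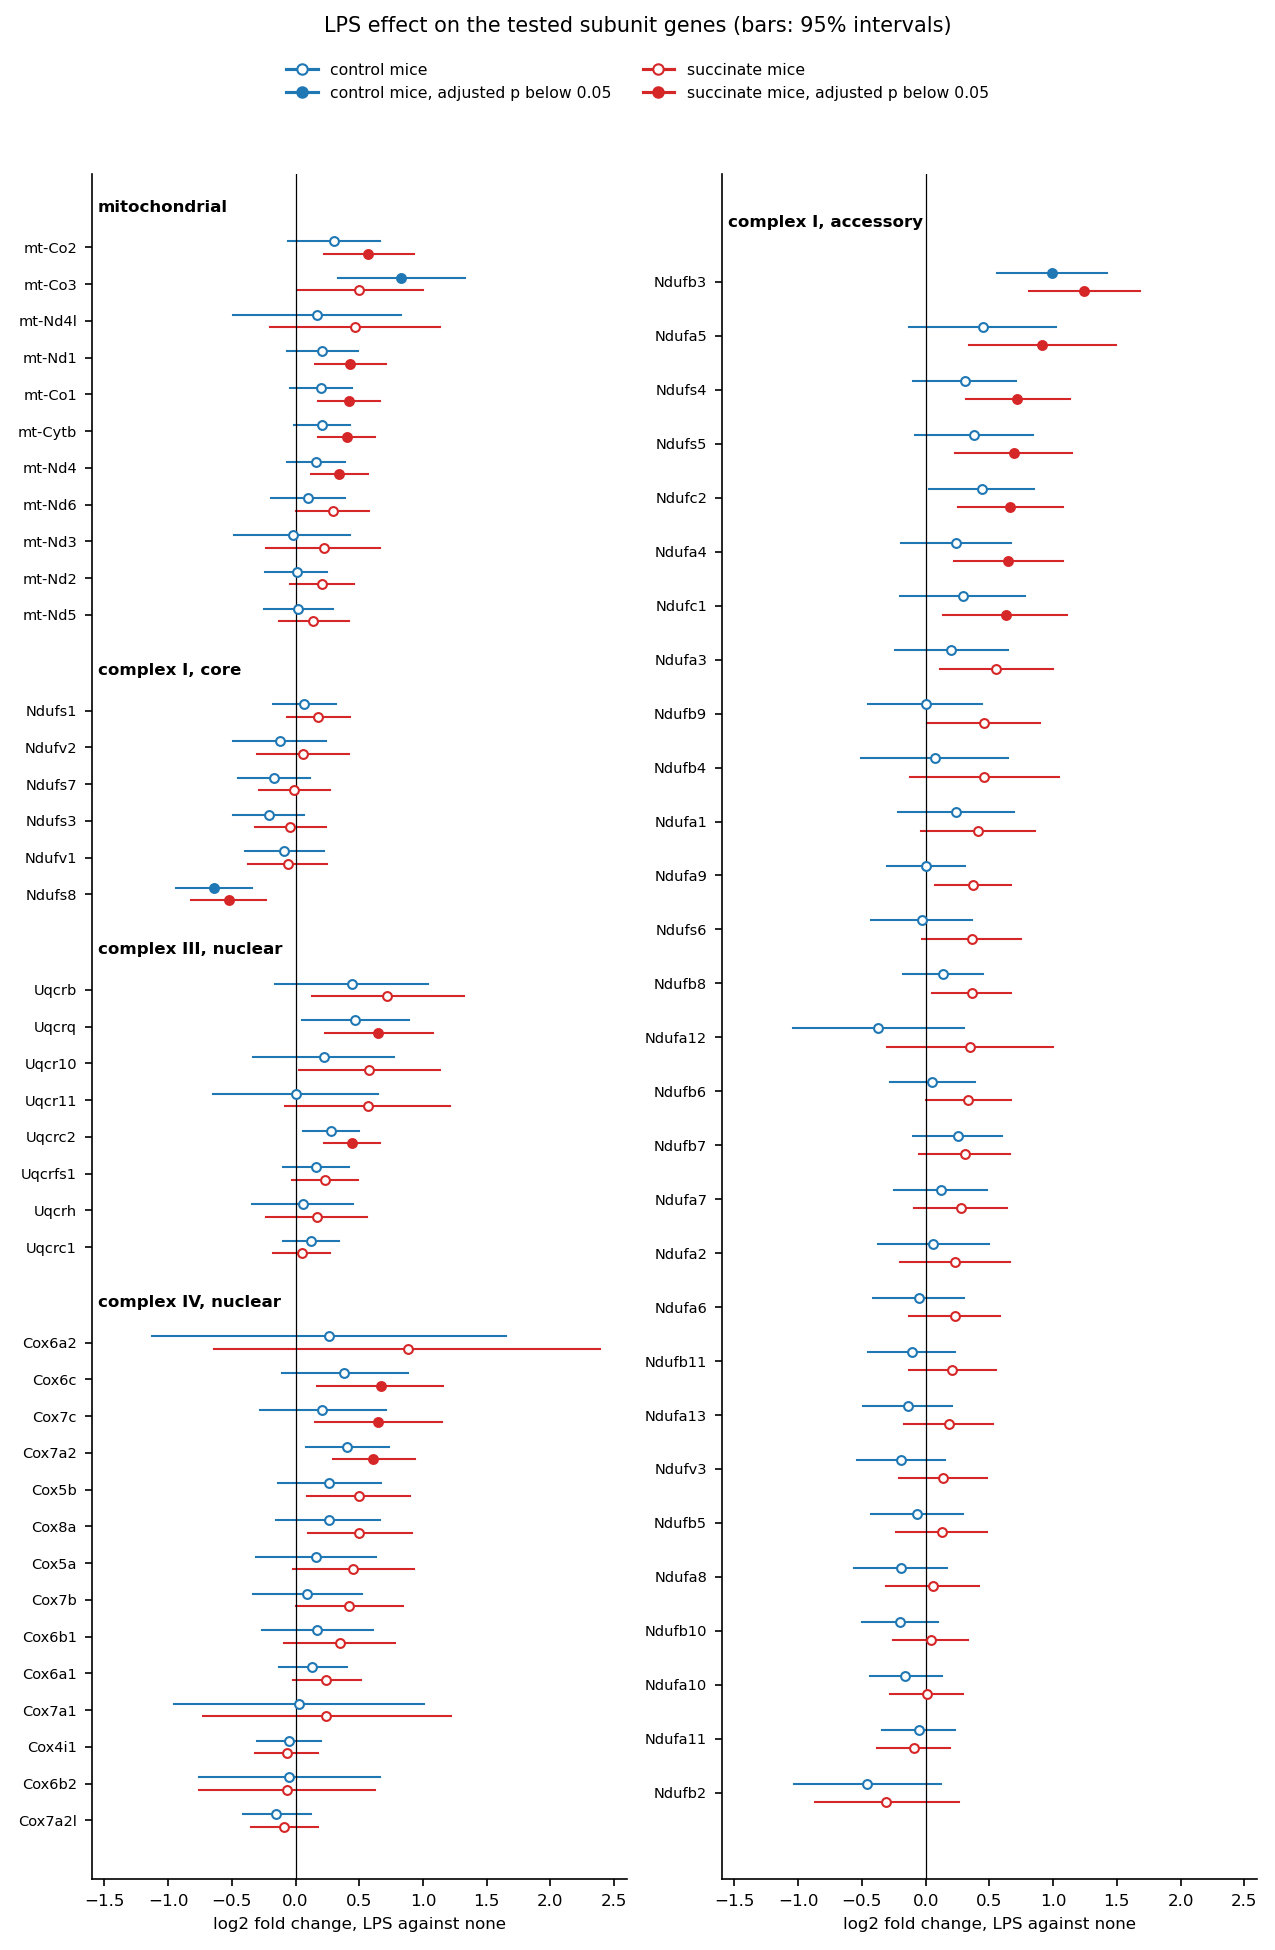
Log2 fold change with LPS of the tested members, with 95% intervals and without 1 uncalled member not reported here, in control mice and in succinate mice, grouped by genome and complex. Filled points have an adjusted p below 0.05, and Ndufb3 stands highest and Ndufs8 lowest among the filled points of both kinds of mice.

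Per kilobase of transcript, mt-Co1 had the highest level of all members, at 2670 CPM per kilobase over the 12 libraries (lowest 2080, highest 3240). It encodes the subunit of complex IV that holds the oxygen-reducing centre. Next came mt-Cytb, the cytochrome b of complex III, at 1010 (838 to 1290) and mt-Nd1, a membrane subunit of complex I, at 945 (702 to 1230) CPM per kilobase, and these last overlapped over the libraries. The complex I subunits mt-Nd5, mt-Nd4, mt-Nd2 and mt-Nd6 followed at 490, 474, 463 and 435 CPM per kilobase, in an order within their spread.

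The remaining mitochondrial members were far lower, with mt-Co2 at 38.4 (26.6 to 49.9), mt-Co3 at 21.3 (14.0 to 42.5), mt-Nd3 at 17.3 and mt-Nd4l at 6.83 (4.13 to 9.71) CPM per kilobase. These 4 are the members matched almost wholly and base for base by nuclear copies. Of their windows of 100 bases, 99.5%, 99.9%, 97.6% and 98.5% also occur in another annotated transcript of GENCODE M21, mostly in a block of nuclear copies on chromosome 1. The share was 60.8% for mt-Nd4, 30.8% for mt-Co1, 3.2% for mt-Nd2 and 0% for mt-Nd5, mt-Cytb, mt-Nd1 and mt-Nd6. A copy of mt-Co1 on chromosome 2, Gm13340, also spans all its 1545 bases, with an identity of 97.6%. The sources used here do not say how reads that match both a mitochondrial gene and its copy were counted, which leaves the levels of these genes uncertain.

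**Figure D3:**
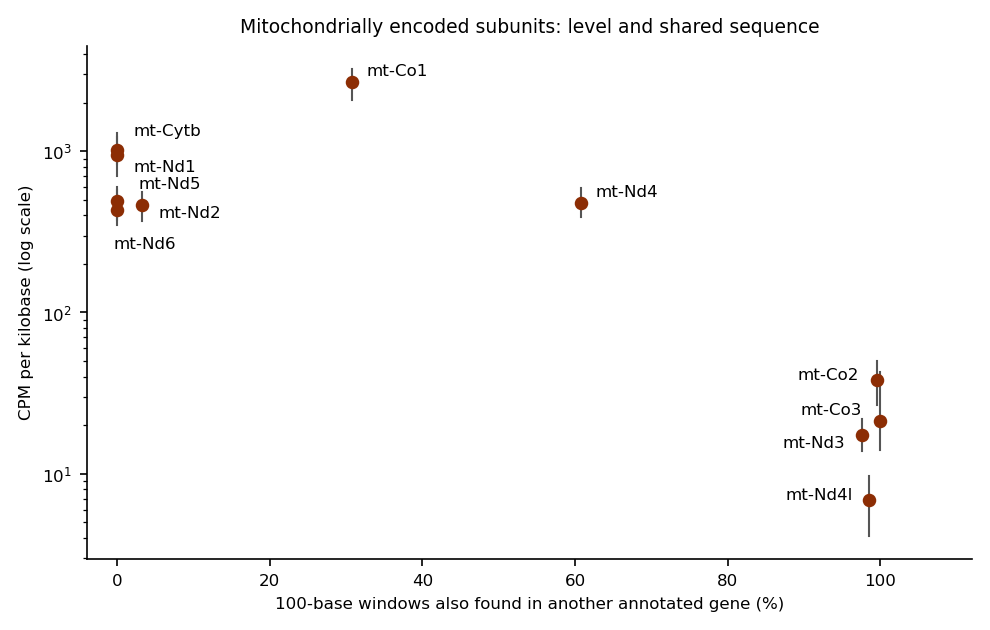
Mean CPM per kilobase of the 11 mitochondrial members (log axis) against the percentage of their 100-base windows found in another annotated transcript. The 4 genes shared over at least 97.6% of windows lie at 6.83 to 38.4, and the other 7 at 435 to 2670 CPM per kilobase.

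The sequences show how closely genes and copies match. The first 90 bases of mt-Co3 (chrM:8607-8696, plus strand) and of its copy Gm28437 (chr1:24613882-24613971, minus strand) are given 5′ to 3′ from GENCODE M21 on GRCm38, in lower case throughout because none of the bases differ.
mt-Co3: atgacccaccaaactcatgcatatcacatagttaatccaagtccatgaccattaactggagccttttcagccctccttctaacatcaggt
Gm28437: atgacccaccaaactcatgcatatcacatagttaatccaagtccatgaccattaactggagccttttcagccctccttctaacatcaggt
Over the whole copy, 783 of the 784 bases of mt-Co3 align with 0 mismatches. The copy of mt-Co2, Gm28661, covers 681 of 684 bases with 0 mismatches.

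For mt-Co1 the end of the transcript is shared and the start can be told apart. The next pair starts at base 1054 of mt-Co1 (chrM:6381-6470, plus strand), where its copy Gm29216 begins (chr1:24616108-24616197, minus strand), and capitals mark the 6 bases that differ.
mt-Co1: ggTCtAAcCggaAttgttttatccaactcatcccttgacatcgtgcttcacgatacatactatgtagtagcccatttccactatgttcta
Gm29216: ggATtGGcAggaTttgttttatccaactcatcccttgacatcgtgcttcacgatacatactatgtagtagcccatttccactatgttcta
The 479 bases after the last mismatch are identical in both. At the start of mt-Co1 (chrM:5328-5417, plus strand) the copy Gm13340 (chr2:22589558-22589647, minus strand) differs at 3 of 90 bases, again in capitals.
mt-Co1: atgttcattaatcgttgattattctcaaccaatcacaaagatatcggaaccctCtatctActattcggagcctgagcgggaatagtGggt
Gm13340: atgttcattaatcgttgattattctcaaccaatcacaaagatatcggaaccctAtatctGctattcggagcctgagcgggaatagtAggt
Over its whole length, Gm13340 has 37 mismatches to mt-Co1, an identity of 97.6%.

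Levels of mt-Co1 (chrM:5328-6872, plus strand, protein-coding) were 4070, 3720 and 3630 CPM in control mice without LPS, 3890, 3210 and 3580 CPM in succinate mice without LPS, 4530, 4460 and 4110 CPM in control mice with LPS, and 4750, 4540 and 5010 CPM in succinate mice with LPS. All libraries with LPS were above all libraries without it, and the 3 of succinate mice with LPS were the highest. With LPS the log2 fold change was 0.42 ± 0.11 (SE, edgeR adjusted p = 0.00938) in succinate mice and 0.20 (adjusted p = 0.2) in control mice. The difference between these was 0.22 with a 95% interval of -0.11 to 0.55.

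Levels of mt-Cytb (chrM:14145-15288, plus strand), which shares no window with a nuclear transcript, were 1120, 1000 and 1060 CPM in control mice without LPS and 1030, 959 and 1060 CPM in succinate mice without LPS. With LPS they were 1220, 1280 and 1180 CPM in control and 1290, 1250 and 1480 CPM in succinate mice. Libraries with LPS were above those without in both kinds of mice. The gain was 0.40 ± 0.10 log2 (SE, edgeR adjusted p = 0.00885) in succinate mice and 0.21 (adjusted p = 0.149) in control mice. With the class covariate mt-Co1 (log2 fold change 0.32, adjusted p = 0.0375) and mt-Cytb (0.35, adjusted p = 0.0295) were the mitochondrial members still called in succinate mice.

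The other mitochondrial members called in succinate mice were mt-Co2, the subunit of complex IV that receives electrons from cytochrome c, and the complex I subunits mt-Nd1 and mt-Nd4. Levels of mt-Co2 were 27.0, 18.2 and 22.6 CPM without and 34.1, 32.8 and 34.1 CPM with LPS in succinate mice, which did not overlap, and 27.6, 18.3 and 19.8 CPM against 28.1, 28.5 and 24.3 CPM in control mice, which did. Its log2 fold changes were 0.57 ± 0.17 (SE, edgeR adjusted p = 0.0168) and 0.30 (adjusted p = 0.205). With its copy Gm28661 added, the sums were 40.4 ± 7.92 and 58.9 ± 1.1 CPM in succinate mice and 40.5 ± 8.24 and 49.8 ± 3.75 CPM in control mice (SD, n = 3 each). The call of mt-Co2 in succinate mice was lost without replicate 2 of succinate mice without LPS, where its log2 fold change was 0.46.

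Levels of mt-Nd1 in succinate mice were 776, 672 and 840 CPM without and 941, 964 and 1180 CPM with LPS, without overlap (log2 fold change 0.43 ± 0.13, SE, edgeR adjusted p = 0.0204). Levels of mt-Nd4 were 540, 610 and 617 CPM without and 698, 729 and 818 CPM with LPS, also without overlap (0.34 ± 0.11, adjusted p = 0.0233), and after removal of GC and length trends the fold change of mt-Nd4 was -0.02. The other complex I members of this genome, mt-Nd2, mt-Nd3, mt-Nd4l, mt-Nd5 and mt-Nd6, were not called in either kind of mice. In succinate mice mt-Nd5, for example, had 683, 904 and 960 CPM without and 838, 930 and 1050 CPM with LPS, which overlapped. Over the 12 libraries mt-Nd2 ran from 370 to 562, mt-Nd6 from 347 to 597, mt-Nd3 from 13.8 to 22.0 and mt-Nd4l from 4.13 to 9.71 CPM per kilobase.

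The mitochondrial call of control mice was mt-Co3 (chrM:8607-9390, plus strand), a structural subunit of complex IV, with 1 library far above the others. Its levels were 15.3, 11.4 and 11.4 CPM without LPS and 17.3, 16.9 and 33.3 CPM with LPS in control mice, and 14.9, 11.0 and 13.4 CPM against 17.6, 18.5 and 19.5 CPM in succinate mice. Replicate 3 of control mice with LPS was nearly as high as the other libraries of its group together. The log2 fold change in control mice was 0.83 ± 0.23 (SE, edgeR adjusted p = 0.0141) and 0.44 without that library, where the call was lost. The call was also lost without replicate 2 (0.78) or replicate 3 (0.76) of control mice without LPS. In succinate mice it was 0.50 (adjusted p = 0.12).

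The identical copy Gm28437 stood high in other libraries. Its levels were 11.5, 31.6 and 11.1 CPM in control mice without LPS, 9.75, 8.11 and 26.6 CPM in succinate mice without LPS, 12.9, 9.87 and 11.7 CPM in control mice with LPS, and 12.6, 12.3 and 12.5 CPM in succinate mice with LPS. The sums of mt-Co3 and Gm28437 were 30.7 ± 10.8 CPM without and 34.0 ± 9.74 CPM with LPS in control mice, and 27.9 ± 10.8 and 31.0 ± 0.934 CPM in succinate mice (SD, n = 3 each). The sum overlapped between libraries with and without LPS in both kinds of mice. Replicate 2 of control mice without LPS, replicate 3 of succinate mice without LPS and replicate 3 of control mice with LPS had the 3 highest sums, 42.9, 39.9 and 45.1 CPM. Each is a library high for the 5 class genes. The remaining libraries high for those genes, without LPS replicate 3 of control and replicate 2 of succinate mice, had the lowest sums, 22.5 and 19.1 CPM.

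**Figure D4:**
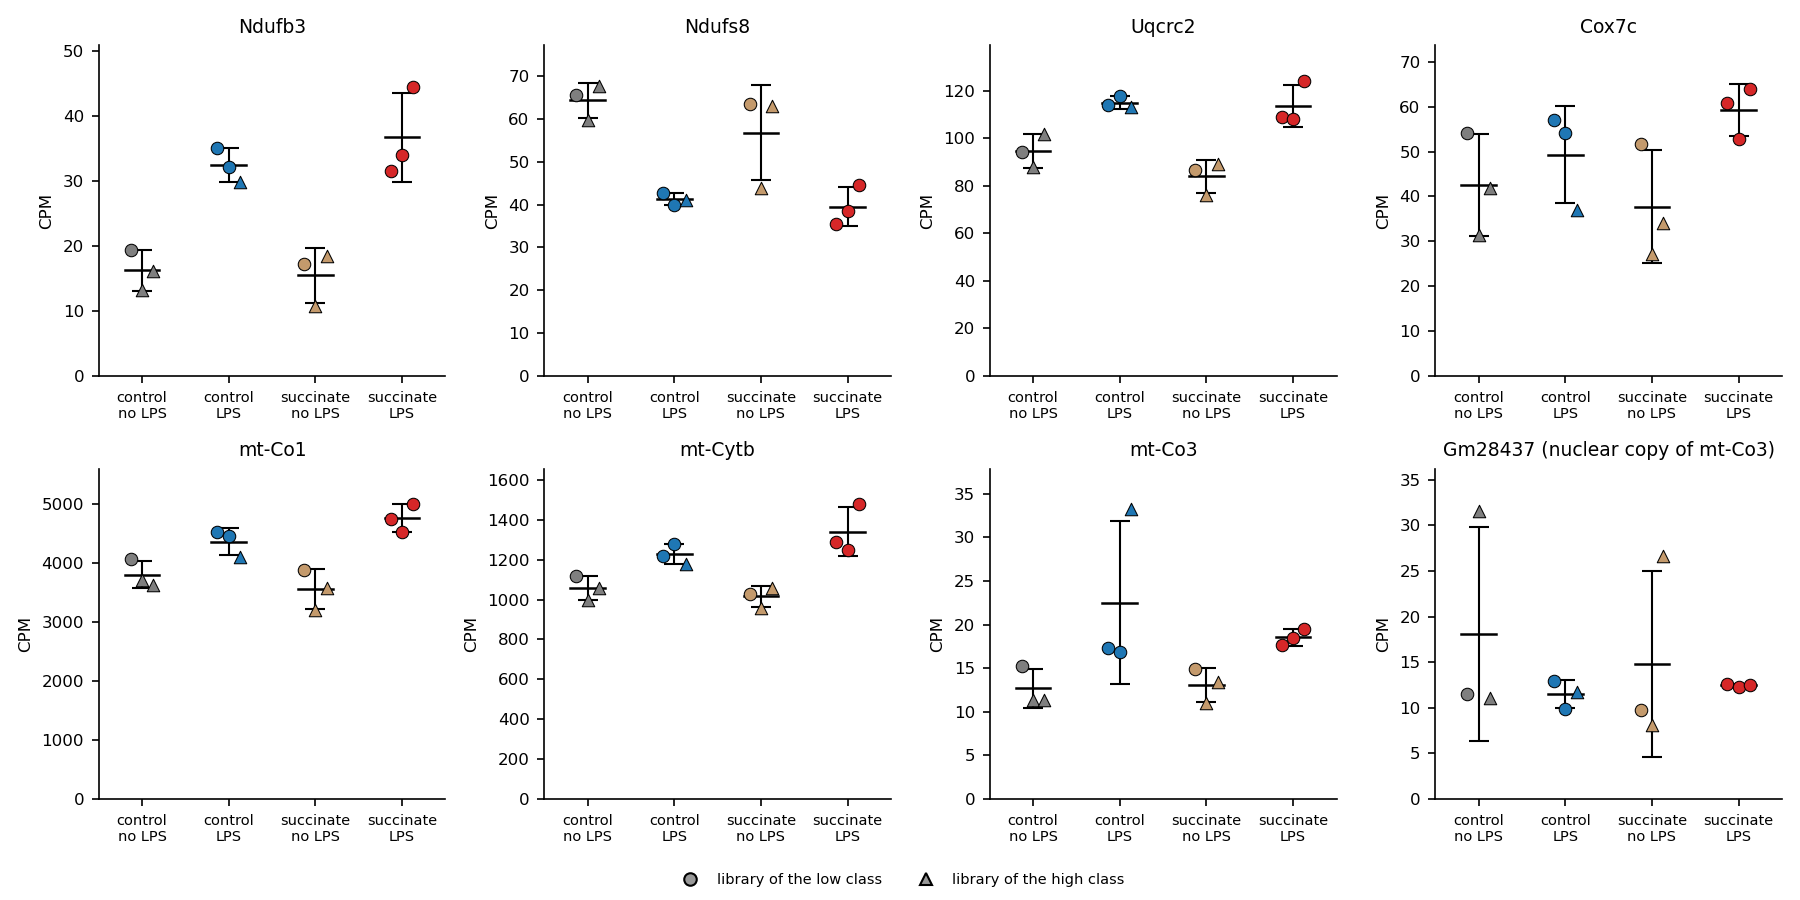
CPM in each of the 12 libraries of Ndufb3, Ndufs8, Uqcrc2, Cox7c, mt-Co1, mt-Cytb, mt-Co3 and the nuclear copy Gm28437, by group, with bars for the mean ± SD of 3 libraries and triangles for libraries high for the 5 class genes. Ndufb3 is higher and Ndufs8 lower with LPS, and single libraries stand out for mt-Co3 (33.3 CPM) and Gm28437 (31.6 and 26.6 CPM).

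Among the nuclear members of complex I, the 7 core subunits, which form the electron-transfer arm, and the accessory subunits around them were counted apart. Of the 7 core members 1 was called, lower, in each kind of mice, with median log2 fold changes of -0.17 in control and -0.04 in succinate mice. Of the 29 accessory members tested 1 was called higher in control and 7 in succinate mice, with medians of 0.05 and 0.35, and 0 were called lower. The core share called lower, 14.3%, is near the 14.8% and 16.2% of all tested genes, and the accessory share called higher in succinate mice, 24.1%, stands beside 14.1%. The subgroups were not tested against each other.

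The largest change with LPS was that of Ndufb3 (chr1:58586384-58595964, plus strand, protein-coding), an accessory subunit in the membrane arm of complex I. Its levels were 19.4, 13.2 and 16.1 CPM in control and 17.2, 10.7 and 18.5 CPM in succinate mice without LPS, and 35.1, 32.1 and 29.9 CPM and 31.5, 34.0 and 44.5 CPM with LPS. All 6 libraries with LPS were above all 6 without. Its log2 fold change was 0.99 ± 0.20 (SE, edgeR adjusted p = 0.00154, 1.99-fold) in control mice and 1.24 ± 0.20 (adjusted p = 0.000236, 2.37-fold) in succinate mice. With the class covariate it stayed called in succinate mice at 1.07 (adjusted p = 0.00201). None of its windows of 100 bases occur in another annotated transcript.

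In the main fit the one member called lower was Ndufs8 (chr19:3908863-3912774, minus strand, protein-coding), the core subunit that carries iron-sulfur clusters on the path to ubiquinone. Its levels were 65.6, 59.7 and 67.6 CPM without and 42.7, 39.9 and 41.1 CPM with LPS in control mice, which did not overlap. In succinate mice they were 63.5, 43.9 and 62.9 CPM without and 35.5, 38.5 and 44.6 CPM with LPS, where replicate 2 without LPS was just below replicate 3 with LPS. The log2 fold change was -0.64 ± 0.14 (SE, edgeR adjusted p = 0.00261, 0.641-fold) in control mice and -0.52 ± 0.14 (adjusted p = 0.0102, 0.696-fold) in succinate mice. In succinate mice the call was lost without replicate 3 of the libraries without LPS (-0.42) or without replicate 1 of those with LPS (-0.43).

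The core subunits Ndufs1 and Ndufv1 were not called. Levels of Ndufs1, the largest iron-sulfur subunit, were 56.2, 54.3 and 56.8 CPM without and 55.7, 60.9 and 59.4 CPM with LPS in control mice, and 52.0, 42.8 and 55.9 against 50.3, 59.7 and 61.5 CPM in succinate mice, with overlap in both. Its log2 fold changes were 0.07 ± 0.12 (SE, edgeR adjusted p = 0.7) and 0.18 ± 0.12 (adjusted p = 0.262). Ndufv1, which binds NADH and the flavin, had log2 fold changes of -0.09 (adjusted p = 0.691) and -0.06 (adjusted p = 0.808).

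Besides Ndufb3, the complex I members called higher in succinate mice were Ndufs4, Ndufc2, Ndufa5, Ndufa4, Ndufs5 and Ndufc1. Ndufs4, an accessory subunit of the arm that reaches into the matrix and a Leigh syndrome gene in humans, had 26.3, 13.9 and 19.3 CPM without and 31.0, 31.6 and 35.6 CPM with LPS, without overlap (log2 fold change 0.72 ± 0.19, SE, edgeR adjusted p = 0.00911). Ndufc2, of the membrane arm, had 11.3, 8.58 and 13.5 CPM without and 16.0, 14.8 and 22.1 CPM with LPS, without overlap (0.66 ± 0.19, adjusted p = 0.0167). Both stayed called with the class covariate, at 0.50 (adjusted p = 0.0438) and 0.69 (adjusted p = 0.0379). With GC and length trends removed, Ndufs4 stayed called and Ndufc2 did not.

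The other 4 lost the call with the class covariate. Ndufa5 had 8.34, 5.14 and 6.77 CPM without and 10.8, 12.6 and 14.8 CPM with LPS (log2 fold change 0.91 ± 0.27, SE, edgeR adjusted p = 0.0176, and 0.60 with the covariate). Ndufa4, counted here with complex I by its symbol although it is now assigned to complex IV, had 39.2, 21.0 and 29.9 CPM without and 44.1, 45.7 and 52.0 CPM with LPS (0.65 ± 0.20, adjusted p = 0.0227, and 0.38). Ndufs5 had 13.2, 8.46 and 13.3 CPM without and 17.2, 17.7 and 21.6 CPM with LPS (0.69 ± 0.21, adjusted p = 0.0233, and 0.41). None of the 3 overlapped between the groups, and replicate 2 without LPS was the lowest library of each. Ndufs5 shares 19.8% of its windows with the copy BC002163. Ndufc1, also of the membrane arm, had a log2 fold change of 0.63 ± 0.23 (adjusted p = 0.0493) and 0.40 with the covariate. Of the accessory members Ndufa9, Ndufb8 and Ndufa13, which were not called, the log2 fold changes in succinate mice were 0.37 (adjusted p = 0.0632), 0.36 (adjusted p = 0.0761) and 0.18 (adjusted p = 0.444).

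Promoters of these genes are shown because members of 1 complex moved in opposite directions. RefSeq on GRCm38.p6 gave an entry for 50 of the 63 protein-coding nuclear members, and the 250 bases before the start were searched on both strands for 4 motifs: NRF1 as GCGC repeated after 2 bases of any kind, the ETS motif bound by GABPA as CCGGAAG, YY1 as AAGATGGC and the oestrogen-related receptors as TCAAGGTCA. NRF1 and GABPA are known as regulators of nuclear respiratory genes. In the sequences, 5′ to 3′ on the gene's strand and ending at the base before the start, capitals mark matches on either strand. Ndufb3 (chr1:58586147-58586396, plus strand) and Ndufs8 (chr19:3912775-3913024, minus strand) rose and fell, Ndufs5 (chr4:123718187-123718436, minus strand) was called in succinate mice, and Cox6a1 (chr5:115348959-115349208, minus strand) held the most kinds of match.
Ndufb3: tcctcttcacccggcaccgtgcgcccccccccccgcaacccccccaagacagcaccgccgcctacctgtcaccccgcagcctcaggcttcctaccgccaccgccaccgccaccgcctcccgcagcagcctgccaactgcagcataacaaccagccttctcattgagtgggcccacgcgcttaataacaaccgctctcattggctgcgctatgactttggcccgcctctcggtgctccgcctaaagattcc
Ndufs8: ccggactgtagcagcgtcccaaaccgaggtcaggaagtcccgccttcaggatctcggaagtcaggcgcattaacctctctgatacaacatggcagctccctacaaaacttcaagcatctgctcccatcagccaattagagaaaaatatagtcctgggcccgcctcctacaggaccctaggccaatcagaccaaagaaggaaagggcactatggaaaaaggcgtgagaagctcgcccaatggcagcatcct
Ndufs5: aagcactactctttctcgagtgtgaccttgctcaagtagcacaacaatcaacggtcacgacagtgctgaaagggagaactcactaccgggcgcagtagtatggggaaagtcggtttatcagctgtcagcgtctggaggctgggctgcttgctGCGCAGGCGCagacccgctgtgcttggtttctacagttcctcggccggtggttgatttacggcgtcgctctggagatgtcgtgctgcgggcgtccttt
Cox6a1: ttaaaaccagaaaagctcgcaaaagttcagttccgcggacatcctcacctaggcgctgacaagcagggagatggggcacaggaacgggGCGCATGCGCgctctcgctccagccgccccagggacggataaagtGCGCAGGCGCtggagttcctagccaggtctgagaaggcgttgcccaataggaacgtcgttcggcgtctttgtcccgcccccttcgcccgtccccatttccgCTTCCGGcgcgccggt
In Ndufs5 the capitals are an NRF1 match that starts 98 bases before the start. In Cox6a1 they are NRF1 matches 162 and 117 bases before it and an ETS match, on the other strand, 16 bases before it.

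Over the 50 members, 8 (16.0%) held the NRF1 letters, against 5.64% of 27025 genes with a promoter entry, and 7 (14.0%) the ETS letters, against 7.83%. The members with NRF1 letters were Cox6a1, Ndufa11, Ndufa5, Ndufa8, Ndufb4, Ndufs5, Ndufs6 and Ndufv2, of which Ndufa5 and Ndufs5 were called with LPS in succinate mice. Those with ETS letters were Cox6a1, Cox6b1, Ndufb6, Ndufb7, Ndufs3, Uqcr11 and Uqcrh, and none of them was called. The YY1 and oestrogen-related receptor letters were in 0 members, against 1.83% and 0.422% of genes. The 27025 genes were not limited to the 14324 tested in these cells, so they are not matched to the members for expression. A match describes letters in this window and shows no binding.

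All 8 nuclear subunits of complex III had a log2 fold change above 0 with LPS in succinate mice, with a median of 0.50, and 2 were called, Uqcrc2 and Uqcrq. In control mice 7 of 8 were above 0, with a median of 0.19, and 0 were called by edgeR, where 2 had an unadjusted p below 0.05. Of all tested genes 39.2% had an unadjusted p below 0.05 there. Uqcrc2 and Uqcrq had adjusted p-values near the threshold in control mice. Of all tested genes, 14.1% were called higher in succinate and 15.3% in control mice, and 48.4% and 49.7% had a fold change above 0.

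Uqcrc2 (chr7:120635176-120659524, plus strand, protein-coding), a core protein of complex III, had 94.4, 87.9 and 102 CPM in control and 86.7, 76.0 and 89.2 CPM in succinate mice without LPS, and 114, 118 and 113 CPM and 109, 108 and 124 CPM with LPS. All libraries with LPS were above all without. The log2 fold change was 0.28 (edgeR adjusted p = 0.0531) in control and 0.44 ± 0.10 (SE, adjusted p = 0.00448) in succinate mice, and 0.42 (adjusted p = 0.0155) there with the class covariate. With GC and length trends removed, the call in succinate mice was lost. Its exons overlap those of Pdzd9 on the other strand over 19.7% of their length, and Pdzd9 had 0.276 CPM.

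Uqcrq, a small subunit near the ubiquinone site, had 89.4, 64.7 and 76.5 CPM in control and 70.3, 40.2 and 60.0 CPM in succinate mice without LPS, and 121, 107 and 91.5 CPM and 75.0, 82.1 and 111 CPM with LPS. The groups with and without LPS did not overlap in either kind of mice. Its log2 fold change was 0.47 (edgeR adjusted p = 0.0907) in control mice and 0.65 ± 0.20 (SE, adjusted p = 0.0215) in succinate mice. The latter was 0.42 with the class covariate and was no longer called. Uqcrc1, the other core protein, overlapped between groups, with log2 fold changes of 0.12 (adjusted p = 0.438) and 0.05 (adjusted p = 0.787). Uqcrfs1, the Rieske iron-sulfur protein, had 0.16 (adjusted p = 0.361) and 0.23 (adjusted p = 0.184), and Uqcrb 0.72 (adjusted p = 0.0646) in succinate mice.

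Of the 14 nuclear members of complex IV tested, 0 were called in control mice and 3 in succinate mice, all higher, with medians of 0.17 and 0.44. The share called higher in succinate mice, 21.4%, stands beside 14.1% of all tested genes. In control mice 15.3% of all tested genes were called higher. By edgeR, 1 member in control and 5 in succinate mice had an unadjusted p below 0.05, against 39.2% and 40.0% of all tested genes. Cox7a2, the widely expressed form of a small membrane subunit, had 41.0, 30.1 and 34.6 CPM in control and 38.1, 26.7 and 31.3 CPM in succinate mice without LPS, and 44.0, 48.6 and 47.3 CPM and 47.0, 43.6 and 56.5 CPM with LPS. The groups with LPS were above those without in both kinds of mice. Its log2 fold change was 0.40 (edgeR adjusted p = 0.0569) in control and 0.61 ± 0.15 (SE, adjusted p = 0.00625) in succinate mice, and 0.47 (adjusted p = 0.0353) there with the class covariate.

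Cox7c (chr13:86044816-86046904, minus strand), another small membrane subunit, followed the library class more closely. It had 54.2, 31.4 and 41.9 CPM in control and 51.7, 27.2 and 34.2 CPM in succinate mice without LPS, and 57.0, 54.1 and 36.9 CPM and 60.8, 52.9 and 64.0 CPM with LPS. In each of the 3 groups that hold both classes, the libraries high for the 5 class genes were the low ones for Cox7c. The log2 fold change in succinate mice was 0.65 ± 0.23 (SE, edgeR adjusted p = 0.047), and 0.27 (adjusted p = 0.207) with the class covariate. Cox6c, with 48.3, 25.4 and 38.3 CPM without and 51.8, 58.2 and 68.0 CPM with LPS in succinate mice, went from 0.67 ± 0.23 (adjusted p = 0.0407) to 0.33 (adjusted p = 0.219). Copies share 19.7% of the windows of Cox7c, and Vps13b overlaps 7.0% of the exons of Cox6c on the other strand.

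Per kilobase of exon, Cox4i1, the common form of the largest nuclear subunit of complex IV, had the highest nuclear level over the 12 libraries, 155 CPM per kilobase against a median of 19.2 over the tested nuclear members, and Cox6a1, another subunit of complex IV, was next at 153. Cox4i1 was above Cox6a1 without LPS (162 against 152 in control and 155 against 134 in succinate mice) and below it with LPS (157 against 166 and 148 against 159 CPM per kilobase). Cox4i1 moved little, with 256, 231 and 269 CPM in control and 273, 198 and 247 CPM in succinate mice without LPS, and 239, 246 and 244 CPM and 225, 223 and 238 CPM with LPS. Its log2 fold changes with LPS were -0.05 (edgeR adjusted p = 0.79) and -0.07 (adjusted p = 0.712). Cox7a2l, which joins complexes III and IV in supercomplexes, had -0.15 (adjusted p = 0.422) and -0.09 (adjusted p = 0.645). Cox5a, Cox5b, Cox6a1, Cox7b and Cox8a were not called in either kind of mice.

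Tissue forms and paralogues were near or below detection. Of 8 such members 3 were tested, Cox6a2, Cox6b2 and Cox7a1, and 0 called in any comparison. Cox7b2 and Cox8c had 0 counts over all 12 libraries, and Ndufa4l2, a paralogue of Ndufa4 known as a target of HIF-1, had 9. Cox8b had 13 and Cox4i2, the form of Cox4 known from lung and low oxygen, 21. The remaining untested members, Cox6c2, Ndufa11b, Ndufs6b and Ndufb4c, are annotated as processed pseudogenes and had 9, 10, 32 and 92 counts in all.

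Succinate against control gave no called member. Without LPS 0 members were called higher and 0 lower by edgeR, and 0% of all tested genes were called in either direction. An unadjusted p below 0.05 was reached by 1 member, against 3.73% of all tested genes. With LPS 0 members were called higher or lower, and of all tested genes 0% were called higher and 0.0628% lower. None of the members had an unadjusted edgeR p below 0.05, against 11.7% of all tested genes. For the interaction, the LPS effect in succinate mice minus that in control mice, 0 members were called in either direction. Of all tested genes 0% were called higher and 0% lower, and 3.91% had an unadjusted edgeR p below 0.05, against 0 members. DESeq2, limma-voom and every other alternative run also called 0 members in these 3 contrasts. The larger count with LPS in succinate mice is therefore not shown to differ from that in control mice.

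The medians without LPS were -0.15 for the nuclear members, of which 53 of 58 were below 0, and -0.07 for the mitochondrial members, beside 0.006 over all tested genes. Above 0 were 8.62% of the nuclear members, against 51.3% of all tested genes. The nuclear median moved to 0.01 without replicate 2 of the succinate mice. The member with an unadjusted p below 0.05 was Uqcrq, at -0.44 ± 0.20 (SE, edgeR adjusted p = 0.958, 95% interval -0.86 to -0.01), with overlapping libraries. With LPS the medians were 0.07 and 0.10, beside -0.014 over all tested genes. Scaling by library size alone, which put the median over all genes at 0.107, gave 0.20 and 0.22. The lowest adjusted p with LPS among the members was 0.445, for Ndufa12, an accessory subunit of complex I named after its values were seen, at 0.65 ± 0.31 (SE, edgeR). The interaction medians were 0.23 for the nuclear members, 54 of 58 above 0, and 0.20 for the mitochondrial ones, 10 of 11 above 0. Over all tested genes the interaction median was -0.026, with 45.9% above 0. The nuclear interaction median was 0.07 without replicate 2 and 0.37 without replicate 1 of succinate mice without LPS, and was not tested.

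The intervals show what size of succinate effect these libraries leave possible. For Ndufb3 the 95% interval of succinate against control was -0.51 to 0.36 without LPS and -0.24 to 0.60 with LPS. For Ndufs8 it was -0.47 to 0.12 and -0.36 to 0.24, and for mt-Co1 -0.33 to 0.14 and -0.11 to 0.36. The interaction of Ndufb3 was 0.25 with an interval of -0.35 to 0.86.

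The library class ran through the nuclear members more than through the mitochondrial ones. In each of the 3 groups that hold both classes, 26 of the 58 tested nuclear members (44.8%) were higher in every library of the low class than in every library of the high class, against 10.7% of all tested genes, and 2 of 11 mitochondrial members (18.2%) were. The median difference, low minus high class, was 0.26 log2 for the nuclear members, 0.01 for the mitochondrial ones and 0.01 for all tested genes. It was 0.78 for Cox6b2, 0.67 for Uqcr10, 0.64 for Cox7c, 0.63 for Ndufb4, 0.62 for Cox5a, 0.61 for Uqcrb, 0.57 for Cox6c and 0.53 for Ndufa5, and 0.04 for Uqcrc2, 0.11 for Ndufs8 and 0.29 for Ndufb3. Over the 58 nuclear members the class difference and the LPS fold change of succinate mice had a Pearson correlation of 0.51 and a Spearman correlation of 0.57, as a description, since both come from the same libraries and the members are not independent.

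By transcript length, the 18 nuclear members with up to 1000 exonic bases had a median class difference of 0.35 and the 40 longer ones 0.20, against 0.18 for the 1337 and 0.00 for the 12982 tested genes of those lengths. The share above the high class in all 3 groups that hold both classes was 44.4% for the short and 45.0% for the long members, against 17.7% and 9.96% of tested genes of those lengths. Neither difference between lengths was tested. The median log2 fold changes of the short and long members with LPS in succinate mice were 0.46 and 0.23. Within the low class alone, Ndufb3 (1.12, edgeR adjusted p = 0.0127) and Ndufs8 (-0.66, adjusted p = 0.0246) were the 2 members called in succinate mice. In control mice Ndufs8 (-0.64, adjusted p = 0.0388) stayed called there and Ndufb3 (0.82, adjusted p = 0.0522) did not. In both kinds of mice a single library without LPS remains in this class and is assumed to vary like those of the other groups.

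**Figure D5:**
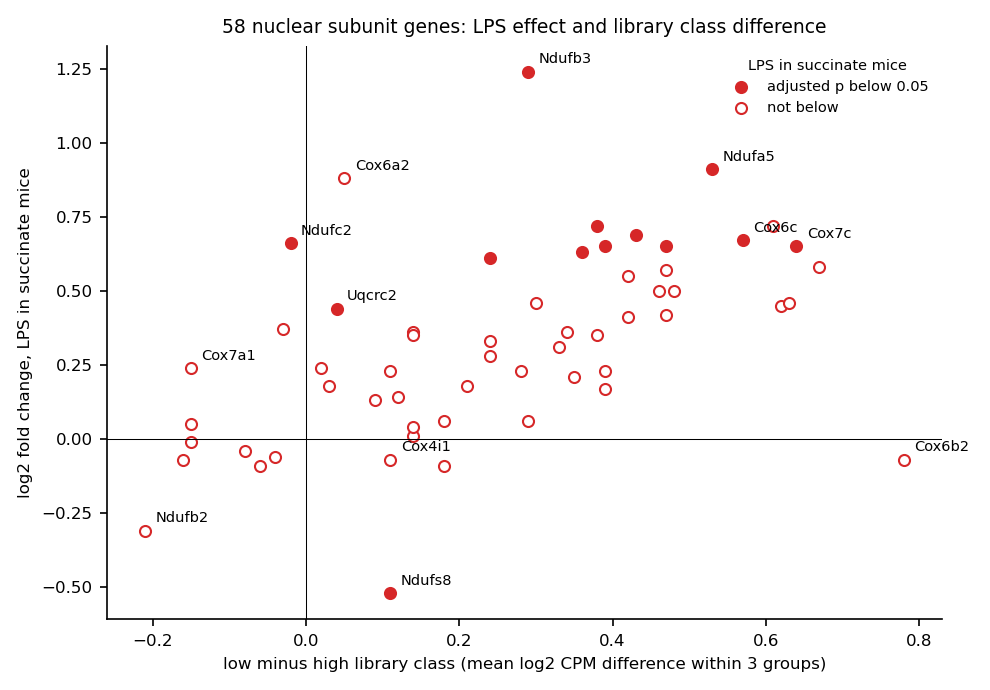
Log2 difference between libraries low and high for the 5 class genes (horizontal) against the log2 fold change with LPS in succinate mice (vertical) for the 58 tested nuclear members, with called members filled. Cox6b2 lies farthest to the right, and the called Cox7c and Cox6c lie at 0.64 and 0.57, whereas Uqcrc2 and Ndufs8 are called at class differences of 0.04 and 0.11.

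Other genes of the pathway, from lists drawn up with earlier results of these data known, changed as follows with LPS. For comparison, 15.3% of all tested genes were called higher and 14.8% lower in control mice, and 14.1% and 16.2% in succinate mice. Of the 4 subunits of complex II, the succinate dehydrogenase, 0 were called in either kind of mice, with medians of 0.08 and 0.07. Of 17 nuclear ATP synthase genes 0 were called in control and 1 higher in succinate mice, Atp5k, at 1.05 ± 0.31 (SE, edgeR adjusted p = 0.0194). Of cytochrome c (Cycs) and the subunits Cyc1 and Ndufab1, which lie outside the symbol rule, Cycs was called in succinate mice, from a mean of 59.5 to 91.8 CPM (0.62 ± 0.20, adjusted p = 0.0303).

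Of 17 assembly factors of complex I, 2 were called higher and 1 lower in control mice and 4 higher and 1 lower in succinate mice, where 15.3% and 14.8% of all tested genes in control mice and 14.1% and 16.2% in succinate mice were called higher and lower. Acad9, a complex I assembly factor that resembles acyl-CoA dehydrogenases, rose from 11.8 to 17.9 CPM in control mice (edgeR adjusted p = 0.00587) and from 10.5 to 19.7 CPM in succinate mice (adjusted p = 0.000255). Dmac2 fell from 21.7 to 11.2 CPM (adjusted p = 0.00019) and from 24.8 to 13.9 CPM (adjusted p = 0.00055). Of 6 assembly factors of complex III, 1 was called higher and 1 lower in control mice, Ttc19 (0.64) and Uqcc3 (-0.49), and Ttc19 again in succinate mice (0.45). Of 21 of complex IV, Coa7 was called lower in control mice (-0.68) and 0 in succinate mice.

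Genes of mitochondrial transcription and biogenesis were called in both directions with LPS, 2 of 20 higher and 4 lower in control mice and 4 higher and 6 lower in succinate mice. Of all tested genes 15.3% were called higher and 14.8% lower in control mice and 14.1% and 16.2% in succinate mice, and nothing is read from counts this close to them. Tfb1m, which methylates the small mitochondrial ribosomal RNA, rose from 2.45 to 6.45 CPM (edgeR adjusted p = 0.000344) and from 2.14 to 6.78 CPM (adjusted p = 7.59e-05). Esrra, an oestrogen-related receptor known to act on respiratory genes, rose from 41.7 to 68.4 and from 42.2 to 73.8 CPM. Polrmt, the mitochondrial RNA polymerase, fell from 32.4 to 18.3 and from 33.7 to 17.4 CPM. Lrpprc, which stabilises mitochondrial messenger RNA, fell from 60.3 to 42.8 and from 65.2 to 39.7 CPM. Of the other mitochondrially encoded RNAs, 3 were tested and 0 called. In succinate against control and the interaction, 0 genes of these lists were called.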

How the data were processed

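The 12 deposited files hold raw read counts per gene, whole numbers that the authors did not normalize. Trim Galore and mm10 appear in the submitters' processing notes. The sources used here name no aligner, counting tool or annotation and do not say whether strand was used, which leaves the assignment of reads from copies and antisense genes unknown.

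Groups came from the sample titles. Counts were fitted with edgeR 4.0.16 (R 4.3.3): filterByExpr left 14324 of the 28563 genes with a count, TMM scaled the libraries, and all 12 libraries entered 1 quasi-likelihood model with a mean for each group (common biological coefficient of variation 0.167). Before CPM were put on a log2 scale, counts were offset by a prior of 2. The Benjamini-Hochberg adjustment ran over all tested genes, and standard errors and 95% intervals came from the same fit. Coordinates, lengths, copies and overlaps came from GENCODE M21, promoters from RefSeq. The scripts were tested on simulated data.

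The members and lists were chosen with earlier results of these data known. Named were every mitochondrial member, the nuclear members called in any contrast, a set of representative subunits, untested members with their counts, and at most 4 called genes a contrast from each other list. The alternatives were other scalings and filters, DESeq2 1.42.0, limma-voom (limma 3.58.1), the 2 groups alone, removal of GC and length trends, the library class, the replicate number as a block and leaving out each library. The labels do not say what a replicate number marks. Between same-numbered libraries, deviations from the group means correlated at 0.114 to 0.615 for succinate mice without and with LPS. They correlated at 0.34 to 0.53 for control and succinate mice without LPS, both above 0.1 for all 3 numbers. The values were -0.339 to 0.325 for control mice without and with LPS, and -0.232 to 0.046 for control and succinate mice with LPS. Libraries of other numbers reached 0.486, for replicate 2 without and replicate 1 with LPS of succinate mice. Best matches with the own number were found for 7 of 12 libraries. A subunit and a marker gene are counted in the totals but not reported by name here.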

Additional observations from a re-analysis of the deposited data

How the results depend on the processing

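Of 532 summary values under the alternatives, 490 were scored as the same. A count of calls was scored so if it stayed close to the main count, whichever members were called. Values that kept their sign, such as a median of 0.40 that became 0.02, could be scored as moved. In 2261 values of single members, 88 calls were lost, 29 were gained and 2 reversed, both mt-Nd4 with LPS in succinate mice, at -0.02 with GC and length trends removed and -0.01 with a replicate block added to that. Between succinate and control mice, and in the interaction, 0 members were called with the replicate block, as without it. Nuclear calls with LPS in control mice, 2, became 4 with the stricter filter, RLE scaling, DESeq2 or GC and length trends removed with a replicate block, 6 with the replicate block, 7 with the 2 groups alone and 1 in the low class. With those trends removed and a replicate block, Cox7a2l and Ndufv2 were the added calls, and 1 of the 4 was higher and 3 lower. The mitochondrial call of control mice in that fit was mt-Nd2. In succinate mice that fit called 15 nuclear members, with 9 of the 13 of the main fit among them. The fit with the trends removed but no block called 9 there, with 7 of the 13 among them. Uqcrc2, Ndufa4, Ndufc1 and Cox7c were lost in both fits, and Cox6c and Ndufc2 in the fit with no block. In succinate mice the 13 nuclear calls became 21 with no filter or a replicate block, each holding all 13, 6 with the class covariate and 2 in the low class. The mitochondrial call of control mice became 0 in the low class or with GC and length trends removed, and the 5 of succinate mice became 2 with the class covariate and 0 in the low class or with those trends removed, with or without the replicate block. The mitochondrial median with LPS in control mice (0.17) was 0.09 with library size alone, -0.18 with GC and length trends removed and -0.19 with the replicate block too, and that of succinate mice (0.40) was 0.02 in both. For succinate against control with LPS, library size alone gave medians of 0.20 and 0.22. Ratios of mitochondrial to nuclear counts without the highest member of each genome were 1.83 and 1.95 without LPS and 1.89 and 1.96 with LPS, in control and succinate mice, and per kilobase 3.44 in control mice with LPS. The causes of these shifts were not tested.

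Leaving out 1 library gave 2 to 5 nuclear calls and 0 to 2 mitochondrial calls in control mice with LPS, and 5 to 27 and 3 to 6 in succinate mice. The 5 came without succinate mice replicate 2 without LPS, or replicate 3 with LPS, and were Cox7a2, Ndufb3, Ndufs4, Ndufs8 and Uqcrc2 both times, and the 27 came without replicate 1 of succinate mice without LPS. The mitochondrial median of succinate against control with LPS ranged from -0.01 to 0.16, and the ratios from 3.05 to 3.25, 3.02 to 3.56, 3.34 to 3.38 and 3.53 to 3.59. Ndufb3 was called in 23 of 24 alternatives in control and 24 of 24 in succinate mice, and Ndufs8 in 24 and 22.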
